A study of Homo sapiens with 6 samples.

Results

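The Rag GTPases, the Ragulator complex and the folliculin complex together hold mTORC1 at the lysosome when amino acids are present. The genes described here were the 10 rows of the deposited table with the names RRAGA, RRAGC and RRAGD (Rag GTPases), LAMTOR1, LAMTOR2, LAMTOR4 and LAMTOR5 (Ragulator), and FLCN, FNIP1 and FNIP2 (folliculin complex). They were chosen by name, out of 50868 genes in the table, and all 10 passed the filter of a mean of at least 10 counts that left 15953 genes for testing. RRAGB and LAMTOR3, which belong to the same complexes, were not among the named rows and are given beside them.

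mRNA libraries were made from HEK-293T, an established human embryonic kidney line, of genotype WT. One group of 3 libraries came from cells given DMSO, the vehicle, for 12 h. The other 3 came from cells given nitidine chloride (NC), a benzophenanthridine alkaloid from plants, at 10 µM for the same time. Both groups share the line, the genotype and the duration, and no group combined NC with another agent. The labels do not say whether the 3 libraries of a group came from separate cultures, so p-values measure the spread between these libraries, which may be technical. The study's title concerns the inhibition of mTORC1 by NC, and the comparison of NC with DMSO shows how the transcripts of the lysosomal machinery above mTORC1 differed.

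Rag GTPases work as pairs: RagA or RagB, encoded by RRAGA and RRAGB, joins RagC or RagD, encoded by RRAGC and RRAGD. Ragulator, built from the LAMTOR proteins, anchors the pair to the lysosomal membrane and acts on its nucleotide state. Folliculin, with FNIP1 or FNIP2 as its partner, promotes GTP hydrolysis by RagC and RagD, and through that step controls whether the transcription factors TFEB and TFE3 are phosphorylated by mTORC1 and kept in the cytoplasm. TFEB, TFE3 and MITF bind an E-box, and RRAGD, RRAGC, FLCN and FNIP2 are among their known target genes.

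The start regions of the members are shown first, because RRAGC rose, FNIP1 fell and LAMTOR1 and LAMTOR4 did not pass the test, while all 4 carry the same E-box. RefSeq promoters on GRCh38.p14, 250 bases before to 50 bases after the annotated start, were matched by symbol for 8 of the 10 members, and RRAGA and RRAGD had no entry in the table used. The E-box CACGTG, which is its own reverse complement, was found in 4 of these 8 and in 7.26% of all 35116 promoters in the table. FLCN and FNIP2, named above as targets, held no E-box in this window. A member was counted if any of its entries matched, whereas the share is over single entries. The longer form CACGTGA, or TCACGTG on the other strand, which contains the E-box, was found in the same 4 members and in 3.71% of all promoters. The 250 bases before the start of RRAGC and FNIP1 are printed 5′ to 3′ with the E-box in capitals:
RRAGC, chr1:38859773-38860022, minus strand: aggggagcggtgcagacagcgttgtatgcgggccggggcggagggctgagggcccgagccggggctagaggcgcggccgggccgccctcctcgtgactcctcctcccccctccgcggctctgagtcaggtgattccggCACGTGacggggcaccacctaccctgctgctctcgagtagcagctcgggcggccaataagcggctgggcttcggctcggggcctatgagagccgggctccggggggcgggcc
FNIP1, chr5:131797018-131797267, minus strand: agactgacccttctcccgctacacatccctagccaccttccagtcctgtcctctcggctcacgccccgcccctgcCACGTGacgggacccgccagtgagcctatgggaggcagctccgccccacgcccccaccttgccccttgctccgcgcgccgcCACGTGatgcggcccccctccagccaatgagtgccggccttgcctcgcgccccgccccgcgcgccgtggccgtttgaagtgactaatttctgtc

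Windows of 36 bases around each E-box let the flanks be compared, again with CACGTG in capitals:
RRAGC, 112 bases before the start, chr1:38859864-38859899, minus strand: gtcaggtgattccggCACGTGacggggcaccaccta
LAMTOR1, 165 bases before the start, chr11:72103442-72103477, minus strand: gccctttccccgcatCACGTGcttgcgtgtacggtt
LAMTOR4, 14 bases before the start, chr7:100148889-100148924, plus strand: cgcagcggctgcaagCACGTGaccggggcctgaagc
FNIP1, 175 bases before the start, chr5:131797172-131797207, minus strand: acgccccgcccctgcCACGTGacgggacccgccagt
FNIP1, 94 bases before the start, chr5:131797091-131797126, minus strand: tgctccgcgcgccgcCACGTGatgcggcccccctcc
RRAGB, 115 bases before the start, chrX:55717619-55717654, plus strand: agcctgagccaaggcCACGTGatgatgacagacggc
RRAGB, 25 bases before the start, chrX:55717709-55717744, plus strand: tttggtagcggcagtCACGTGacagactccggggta

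The E-boxes of RRAGC, LAMTOR4 and FNIP1 were each followed by an A, and that of LAMTOR1 was preceded by a T. FNIP1 carried 2 copies, and the RRAGB promoter carried 3, of which the pair before the start is shown. The E-box preceded by GT and followed by AC, a palindrome that is the core of the element described for lysosomal genes, was found in 0 of the 8 matched members, on either strand, and in 0.353% of all promoters, and RRAGB held it. The ATF4 element TGATGNAA (TTNCATCA on the other strand), searched because the study's title names ATF4, was found in 0 of the 8 and in 3.62% of all promoters. These are letter matches in a short window and say nothing of binding by a factor.

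Of the 10 members, 3 rose, 3 fell and 4 did not pass the threshold of 0.05 on p-values adjusted over all tested genes (edgeR's quasi-likelihood test). NC changed 51.7% of all tested genes under the same rule, 24.7% upward and 27% downward, so a share of 6 in 10 lies near the background. The median log2 fold change was -0.03 over the members and 0.01 over all tested genes. Among the Rag GTPases RRAGA and RRAGC rose and RRAGD fell, the 4 Ragulator genes did not pass, and in the folliculin complex FLCN rose while both of its partners fell. In 6 of the 10 members the NC libraries did not overlap the DMSO libraries, against 60.7% of all tested genes.

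Levels are given as CPM, read counts scaled to library size with the TMM method, and the lowest count of a member in any library was 272, for FNIP1. Rises and falls are thus relative to the other transcripts of a library, and a change in total mRNA per cell would not show in them. Of the 8 genes listed as markers of HEK-293 cells, 7 reached 1 FPKM in at least 1 library, and PAX2 did not. Summed FPKM of the listed markers were 0.37 to 0.592 in DMSO and 0.644 to 0.874 in NC for immune cells, with 0 of 5 genes at 1 FPKM or more and CD3E at 0. The 4 endothelial markers summed to 0.191 to 0.285 and 0.64 to 0.783, with 0 of 4 at 1 FPKM or more. Fibroblast markers, 1 of 5 expressed (COL1A1), summed to 2.73 to 3.1 and 4.82 to 5.14, and mature kidney tubule markers, 0 of 5 expressed with UMOD among those at 0, to 0.91 to 0.963 and 0.251 to 0.333. These sums moved with the treatment, and their part in the results was not tested. In such bulk libraries, fewer cells of a type and less RNA per cell cannot be told apart. Library totals ran from 12688093 to 16357992 counts.

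**Figure D1:**
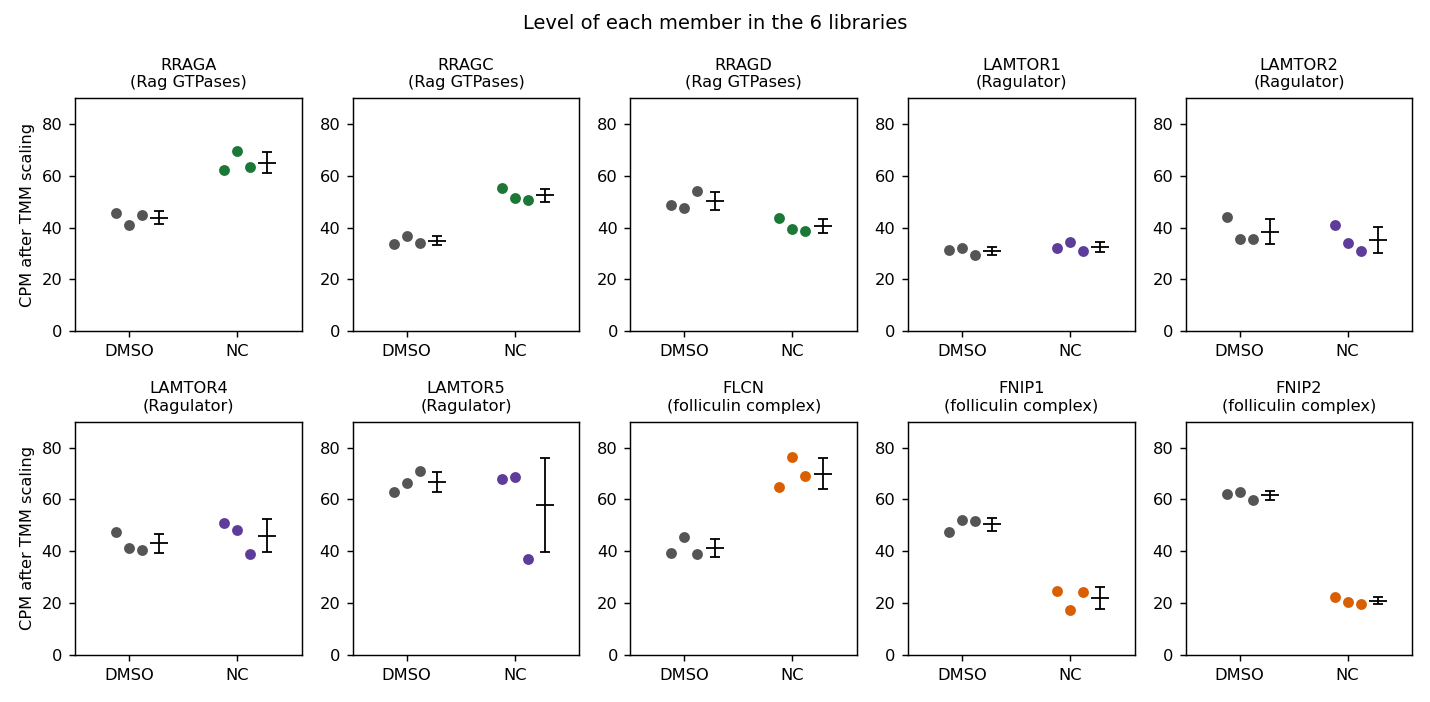
Level of each member in CPM after TMM scaling (vertical axis) in the 3 DMSO and the 3 NC libraries, 1 panel per gene; points are libraries and the bar is the group mean with its SD. FNIP2 fell from 59.7 to 62.8 CPM in the DMSO libraries to 19.8 to 22.3 CPM in the NC libraries, and in LAMTOR5 1 NC library lies at 37 CPM, apart from the other two.

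Among the Rag GTPases, RRAGA encodes RagA, the partner that must carry GTP for mTORC1 to be recruited. It stood at 45.6, 41 and 44.7 CPM in DMSO and at 62.1, 69.7 and 63.3 CPM in NC. All NC libraries lay above all DMSO libraries. RRAGA rose 1.49-fold, a log2 fold change of 0.57 ± 0.08 (SE, n = 3 per group; 95% interval 0.39 to 0.76; edgeR adjusted p = 6.65e-04). The gene is a single exon on chromosome 9 (9:19049395-19050983, plus strand, positions as in the deposited table and in GENCODE release 29 on GRCh38), ENSG00000155876. RRAGB, its close relative, is transcribed at a lower level and stood at 9.2, 8.82 and 10.5 CPM in DMSO and at 11.5, 10.8 and 11.9 CPM in NC. These groups did not overlap either, but the log2 difference of 0.26 ± 0.11 did not pass (adjusted p = 0.0885). It passed at 0.37 when only library size was used for scaling (adjusted p = 0.0292).

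RRAGC encodes RagC, the partner that must carry GDP and the substrate of folliculin. It stood at 33.7, 36.8 and 34 CPM in DMSO and at 55.2, 51.5 and 50.5 CPM in NC, again without overlap. RRAGC rose 1.51-fold, a log2 fold change of 0.59 ± 0.08 (95% interval 0.41 to 0.77; edgeR adjusted p = 4.70e-04). The gene, ENSG00000116954, lies on the minus strand (1:38838198-38859823) and its principal transcript has 7 exons. AL139260.2 lies on the same strand over most of it, shares 1183 bases of exon with it and was given 8 counts in all libraries together. How reads in the shared bases were assigned is not given.

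RRAGD encodes RagD, the alternative to RagC. It stood at 48.7, 47.7 and 54 CPM in DMSO and at 43.8, 39.5 and 38.8 CPM in NC, a small drop without overlap. RRAGD fell by 18.9%, a log2 fold change of -0.3 ± 0.09 (95% interval -0.5 to -0.1; edgeR adjusted p = 0.02). This call was the least firm of the 6 changes. It was lost without DMSO replicate 3 (log2 fold change -0.25, adjusted p = 0.0769), without NC replicate 3 (-0.27, 0.06) and with scaling by library size alone (-0.2, 0.093). The gene, ENSG00000025039, lies on the minus strand (6:89364636-89412270).

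Counts of RRAGD over counts of RRAGC were 1.45, 1.3 and 1.59 in the DMSO libraries and 0.794, 0.766 and 0.768 in the NC libraries. RRAGD thus took 59% ± 2.46 of the RRAGC and RRAGD counts in DMSO and 43.7% ± 0.489 in NC (SD, n = 3). Per length RRAGD did not exceed RRAGC in the DMSO mean: RRAGC stood at 12.7 and RRAGD at 10.2 CPM per kilobase of principal transcript (2732 and 4900 bases), and at 5.65 and 5.6 FPKM. The count ratio is taken within a library, so scaling between libraries does not enter it. Its log2 difference was -0.89, and an exact two-sided permutation test over the 20 splits gave p = 0.1, the smallest value that 3 against 3 libraries allow, and 0.15 after adjustment over the 3 ratios tested. For RRAGB over RRAGA the count ratio was 0.202, 0.215 and 0.234 in DMSO and 0.186, 0.155 and 0.189 in NC, a log2 difference of -0.3 (exact two-sided permutation p = 0.1, adjusted 0.15). Both ratios separated the groups, and neither could pass the threshold in a design of this size.

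Ragulator is the scaffold of the machinery: LAMTOR1 carries the lipid anchor to the membrane, LAMTOR2 and LAMTOR3 pair with each other, as do LAMTOR4 and LAMTOR5. None of the 4 Ragulator members passed the test, and in all 4 the groups overlapped. LAMTOR1, ENSG00000149357 (11:72085895-72103387, minus strand), stood at 31.5, 32 and 29.4 CPM in DMSO and at 32, 34.6 and 30.8 CPM in NC. Its log2 difference was 0.07 ± 0.08 (95% interval -0.12 to 0.26; edgeR adjusted p = 0.516). The 2 groups overlapped between 30.8 and 32 CPM.

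LAMTOR2, ENSG00000116586 (1:156054752-156058510, plus strand), stood at 43.9, 35.6 and 35.5 CPM in DMSO and at 40.8, 34 and 30.8 CPM in NC, with a log2 difference of -0.12 ± 0.13 (95% interval -0.43 to 0.19; edgeR adjusted p = 0.482). LAMTOR3, its binding partner, stood at 37, 35.9 and 31 CPM in DMSO and at 30, 32.3 and 33.1 CPM in NC, with a log2 difference of -0.12 ± 0.09 (adjusted p = 0.311). For both genes of this pair the 2 groups shared part of their range.

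LAMTOR4, ENSG00000188186 (7:100148907-100155944, plus strand), stood at 47.3, 41.2 and 40.6 CPM in DMSO and at 50.9, 48.2 and 39 CPM in NC, with a log2 difference of 0.1 ± 0.12 (95% interval -0.18 to 0.37; edgeR adjusted p = 0.524). LAMTOR5, ENSG00000134248 (1:110401249-110407942, minus strand), stood at 62.9, 66.3 and 70.9 CPM in DMSO and at 68, 68.7 and 37 CPM in NC, with a log2 difference of -0.2 ± 0.22 (95% interval -0.71 to 0.3; edgeR adjusted p = 0.464). A single library, NC replicate 3, decided that estimate: with 514 LAMTOR5 counts it lay well below the other 5, which held 765 to 1117. Without it the log2 difference was 0.04. Its interval is the widest of the 4 Ragulator genes and reaches down to -0.71.

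Genes on the opposite strand overlap part of the Ragulator loci, and the strand setting of the counting is not given in the sources used here. LAMTOR5-AS1 covers all of LAMTOR5, shares 418 bases of exon with it, had 513 counts in all and fell (log2 fold change -0.82 ± 0.19, edgeR adjusted p = 0.00824). MAP11 shares 356 exon bases with LAMTOR4, and LRTOMT covers LAMTOR1 but shares 0 exon bases with it. Without strand, reads of LAMTOR4 and LAMTOR5 cannot be told apart from those of their partners in the shared bases.

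**Figure D2:**
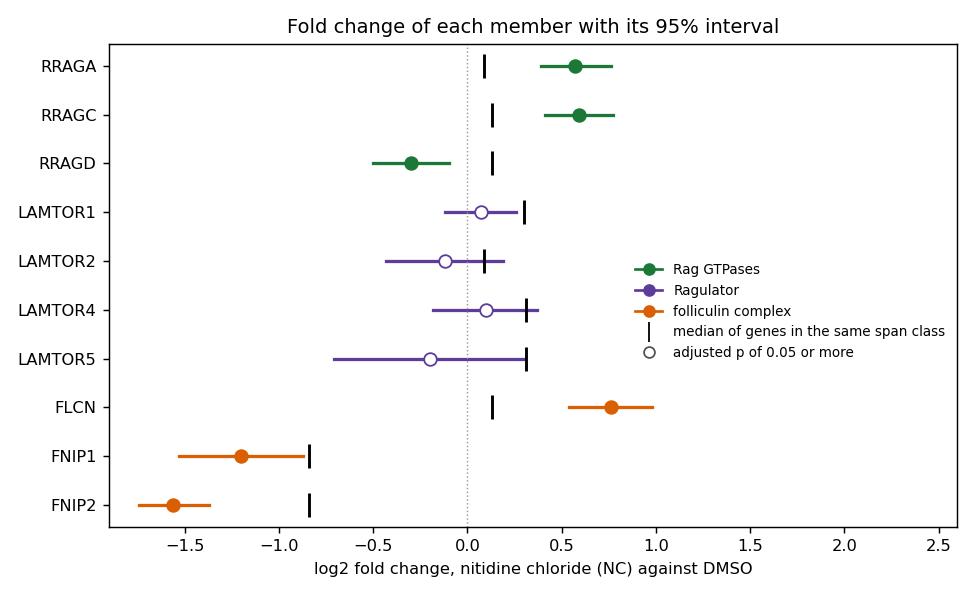
Log2 fold change of each member, NC against DMSO (horizontal axis), with its 95% interval; filled points passed the adjusted threshold, open points did not, and the upright tick is the median of all tested genes of similar genomic span. FLCN at 0.76 lies farthest to the right and FNIP2 at -1.56 farthest to the left, and the 4 Ragulator intervals all include 0.

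The folliculin complex held the highest rise and the deepest falls among the members. FLCN encodes folliculin, the tumour suppressor mutated in Birt-Hogg-Dubé syndrome. It stood at 39.4, 45.4 and 39 CPM in DMSO and at 64.6, 76.2 and 69 CPM in NC. All NC libraries lay above all DMSO libraries. FLCN rose 1.69-fold, a log2 fold change of 0.76 ± 0.09 (95% interval 0.54 to 0.98; edgeR adjusted p = 3.64e-04). The gene, ENSG00000154803, lies on the minus strand (17:17212212-17237188) and its principal transcript has 14 exons. MPRIP on the opposite strand overlaps 5468 bases of its span and 0 bases of its exons, and moved the other way (log2 fold change -1.10, edgeR adjusted p = 6.82e-06). AC055811.2, on the same strand as FLCN, shares 1161 bases of exon with it and had 17 counts in all. How reads in shared bases were assigned is not given.

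FNIP1 and FNIP2 encode the folliculin-interacting proteins, 2 related scaffolds that each bind folliculin and AMPK. FNIP1 stood at 47.5, 52.1 and 51.5 CPM in DMSO and at 24.5, 17.2 and 24.2 CPM in NC. It fell by 56.4%, a log2 fold change of -1.2 ± 0.14 (95% interval -1.53 to -0.87; edgeR adjusted p = 2.74e-04). FNIP2 stood at 62.2, 62.8 and 59.7 CPM in DMSO and at 22.3, 20.5 and 19.8 CPM in NC. It fell by 66%, a log2 fold change of -1.56 ± 0.08 (95% interval -1.74 to -1.37; edgeR adjusted p = 3.61e-06). In both genes every NC library lay far below every DMSO library, and these were the only members that passed a test against a 1.5-fold change. FNIP1, ENSG00000217128 (5:131641714-131797063, minus strand), and FNIP2, ENSG00000052795 (4:158769138-158908049, plus strand), have 18 and 17 exons in their principal transcripts. The genes annotated over them, AC008695.1 and C4orf45, had 0 counts in every library. AC008695.1, on the same strand, shares 281 bases of exon with FNIP1.

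The balance within the complex moved in the transcripts. Counts of FLCN over the summed counts of FNIP1 and FNIP2 were 0.36, 0.395 and 0.351 in DMSO and 1.38, 2.02 and 1.57 in NC, a quantity chosen after its values were seen and given with no test. FLCN counts were thus the smaller part in every DMSO library and the larger part in every NC library. The ratio of FNIP2 to FNIP1 counts was 1.31, 1.2 and 1.16 in DMSO and 0.909, 1.19 and 0.819 in NC. These overlapped, with a log2 difference of -0.35 (exact two-sided permutation p = 0.2, adjusted 0.2). With 3 against 3 libraries the smallest p of this test is 0.1, so it could not decide whether the fall differed between the partners. Count ratios between genes depend on transcript length and do not give molar ratios.

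**Figure D3:**
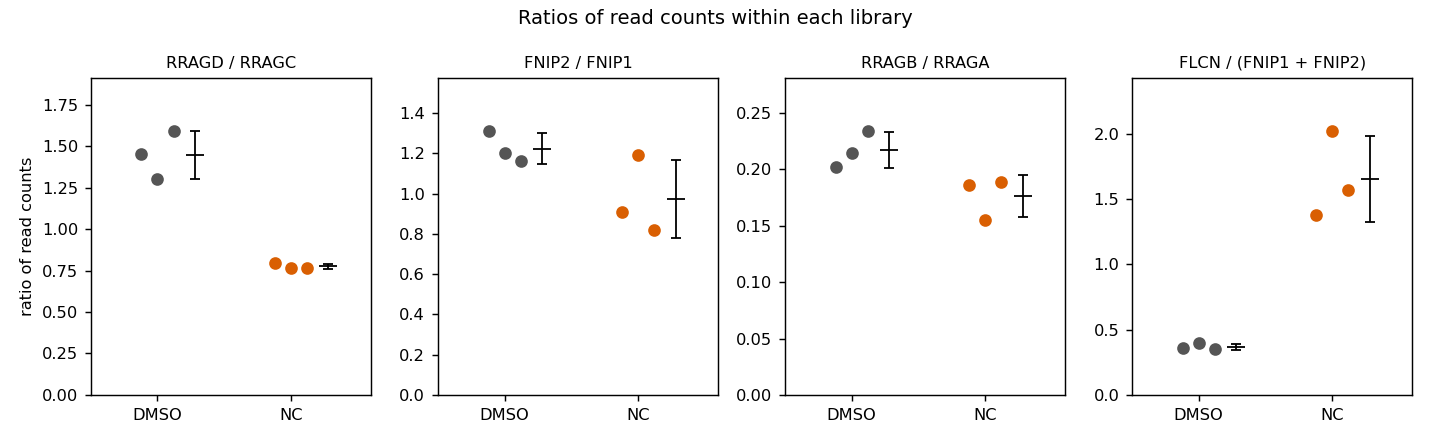
Ratios of read counts between members within each library (vertical axes, no unit, from 0), for the 3 DMSO and the 3 NC libraries; points are libraries and bars the group mean with its SD. RRAGD over RRAGC lies at 1.3 to 1.59 in DMSO and 0.766 to 0.794 in NC, FLCN over FNIP1 plus FNIP2 at 0.351 to 0.395 and 1.38 to 2.02, RRAGB over RRAGA at 0.202 to 0.234 and 0.155 to 0.189, and FNIP2 over FNIP1 overlaps.

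Members could be set against each other only per length. On the deposited FPKM scale the order in DMSO was RRAGA at 26.5 ± 1.41, then LAMTOR2 at 13.5 ± 1.65, LAMTOR5 at 13.4 ± 0.833 and LAMTOR4 at 11.2 ± 0.926 FPKM (SD, n = 3). LAMTOR1, RRAGC and RRAGD followed at 6.27, 5.65 and 5.6 FPKM, then FNIP2 at 4.92, FNIP1 at 3.56 and FLCN at 3.22 FPKM. The ranges of LAMTOR2 and LAMTOR5, of LAMTOR1 and RRAGC, of RRAGC and RRAGD, and of FNIP1 and FLCN overlapped. In NC the order among the lower genes turned: FLCN stood at 5.86 ± 0.395 FPKM, above RRAGD at 4.89 ± 0.37, FNIP2 at 1.8 ± 0.12 and FNIP1 at 1.67 ± 0.344 FPKM.

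The length behind the deposited FPKM limits that order. For RRAGA it equals the gene's exon length, 1589 bases, whereas for LAMTOR2 it is 2736 bases against 1438 bases of exon in all transcripts together and 655 bases in the principal transcript. FPKM thus understates the multi-exon members relative to RRAGA. As CPM per kilobase of the principal GENCODE 29 transcript, a scale added after the data were seen, LAMTOR5, LAMTOR4 and LAMTOR2 led in DMSO at 76.8, 71.2 and 58.5, before RRAGA at 27.5 and LAMTOR1 at 26.3. FNIP1, RRAGC, FLCN and RRAGD lay at 13.1, 12.7, 11.3 and 10.2 with overlapping neighbours, and FNIP2 at 8.89. In NC on this scale FLCN and RRAGC both stood at 19.2 with RRAGD at 8.3, FNIP1 at 5.72 and FNIP2 at 3.02. The rank of RRAGA depended on the length used. FNIP1 and FNIP2 were the lowest of the 10 in NC on both scales, and FNIP2 was already the lowest in DMSO per kilobase.

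Genomic span, the distance from start to end with introns, differed widely among the members, and the response to NC differed with span over all genes. FNIP1 and FNIP2 span 155 and 139 kb. Of the 1738 tested genes of 100 to 200 kb, 75% fell and 2.65% rose, and the median was -0.84 on the log2 scale. FNIP1 at -1.2 and FNIP2 at -1.56 lay below that median, with 24.7% and 9.44% of the class lower than each. Most genes of this span thus fell as well, and the part of span in these results was not tested.

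FLCN, RRAGC and RRAGD fall in the class of 20 to 50 kb, where 30.8% of 3875 genes rose, 12.2% fell and the median log2 fold change was 0.13. FLCN spans 25 kb and lay above 90.9% of the class, RRAGC at 21.6 kb above 85.1%, and RRAGD at 47.6 kb above 13.4%. The short RRAGA, 1.59 kb, lay above 82.8% of the genes under 5 kb, whose median was 0.09. The Ragulator genes lay below the medians of their classes, LAMTOR5 by 0.51 and LAMTOR1, LAMTOR2 and LAMTOR4 by 0.21 to 0.23 on the log2 scale. These positions describe the members and carry no test.

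**Figure D4:**
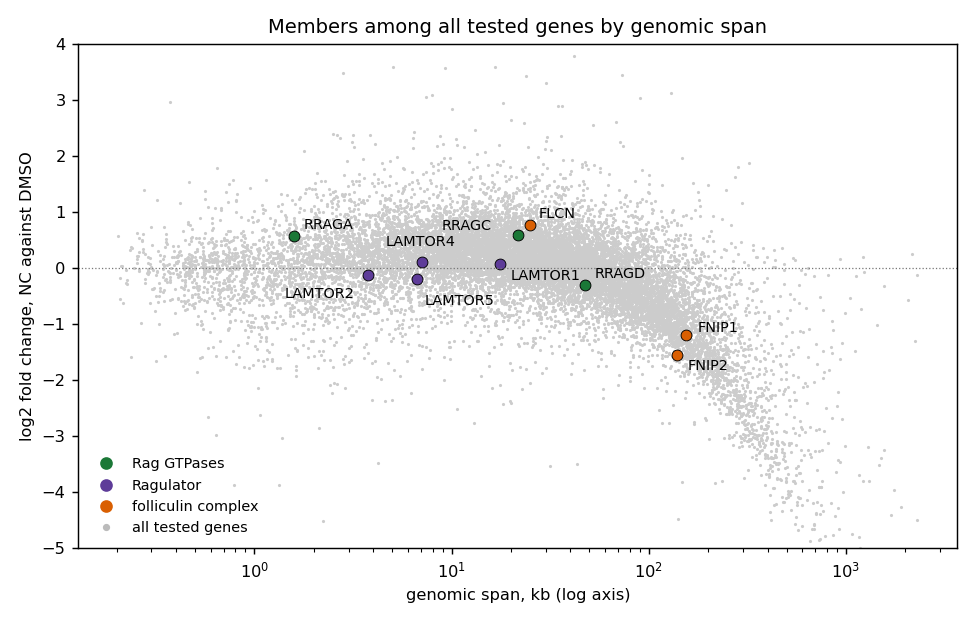
Log2 fold change, NC against DMSO (vertical axis), against genomic span in kb (log axis) for all tested genes (grey) and the members, coloured by complex; 19 genes beyond the vertical limits are not drawn. FNIP1 and FNIP2, at 155 and 139 kb, lie in the range where most genes fell, and FLCN, RRAGA and RRAGC lie in the upper part of their span range.

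By the root mean square difference of log2 CPM, less the DMSO mean, over the 6 libraries, the genes nearest to RRAGC were CTSH (0.0376), MICA (0.0393) and SREBF1 (0.0405). Their log2 fold changes were 0.56, 0.59 and 0.6. Nearest to FNIP2 were PDZRN3 (0.0428), TBCK (0.0467) and SCD5 (0.0486), with log2 fold changes of -1.66, -1.7 and -1.57 and spans of 243, 280 and 169 kb. For LAMTOR5, PRKAR1A was nearest at 0.0743, and ATP5F1E and AC034236.1 followed at 0.103 and 0.107. None of these passed, with log2 fold changes of -0.13 ± 0.23, -0.14 ± 0.23 and -0.21 ± 0.21. LAMTOR5 itself had an outlying library, NC replicate 3, whose part in the likeness was not tested. These likenesses were measured over 6 libraries in 2 groups and describe these libraries only.

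The rest of the pathway was taken from 8 lists with 101 genes, all of which passed the filter on low counts. Over all tested genes 24.7% rose and 27% fell, and no list was tested against these shares. Long genes fell most often, 75% of those of 100 to 200 kb and 89.3% of those of 200 kb or more (median log2 fold change -2). The part of span in the changes of these lists, the deep falls of RPTOR and DENND1A included, was not tested. The list of amino acid input to the Rags at the lysosome also held genes with other roles, such as RHEB, which acts on mTORC1 itself. Of its 8 genes, 0 rose and 4, RHEB included, fell. The log2 fold changes of the 8 genes had a median of -0.37, and scaling by library size alone gave 1 higher and 2 lower. The 4 that fell became 2 without DMSO replicate 1, DMSO replicate 3 or NC replicate 3. The median span of the 8 listed genes was 74.5 kb. Of the 2535 tested genes of 50 to 100 kb, 39.8% fell and 10.5% rose, and the class median was -0.21 on the log2 scale. LARS1, the leucyl-tRNA synthetase that also reports leucine to RagD, fell from 377, 381 and 384 CPM to 281, 289 and 280 CPM, a log2 fold change of -0.43 ± 0.05 (edgeR adjusted p = 3.07e-04). The amino acid transporter SLC36A4 fell by 0.61 ± 0.1 on the log2 scale (edgeR adjusted p = 0.00137). The other falls were the lysosomal arginine sensor SLC38A9 (-0.34 ± 0.1, edgeR adjusted p = 0.028) and RHEB, the GTPase that activates mTORC1 (-0.41 ± 0.15, edgeR adjusted p = 0.0479), both named after their values were seen. Neither of these calls held when libraries were scaled by size alone (SLC38A9 adjusted p = 0.0869, RHEB 0.104). SLC38A9 was also lost without DMSO replicate 1 or 3 or NC replicate 3 (adjusted p = 0.0613, 0.0946 and 0.0729). RHEB passed with only DMSO replicate 2 left out among the single libraries, and reached an adjusted p of 0.142 without DMSO replicate 1.

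The GATOR complexes, KICSTOR and the amino acid sensors set the nucleotide state of RagA and RagB. Of 18 such genes 7 rose and 5 fell, with a median of 0.3, and with scaling by library size alone 10 rose and 5 fell. SESN2, the leucine sensor Sestrin2 that binds GATOR2, rose by 1.51 ± 0.06 on the log2 scale (edgeR adjusted p = 1.51e-06), and C12orf66, a KICSTOR subunit, rose by 0.77 ± 0.11 (edgeR adjusted p = 6.00e-04). BMT2, the S-adenosylmethionine sensor, fell by 1.18 ± 0.1 (edgeR adjusted p = 5.87e-05), and WDR59, a GATOR2 subunit, fell by 0.96 ± 0.07 (edgeR adjusted p = 2.36e-05). DEPDC5 and SESN3 also fell.

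Of 10 genes of mTORC1 and its substrates 5 rose and 3 fell, with a median of 0.15. Without DMSO replicate 3, 3 rose and 3 fell. RPTOR, the subunit that the Rags bind, stood at 86, 82.3 and 85.7 CPM in DMSO and at 9.23, 10.6 and 9.42 CPM in NC, a log2 fold change of -3.12 ± 0.09 (edgeR adjusted p = 4.92e-07). MTOR, the kinase, fell by 1.23 ± 0.06 on the log2 scale (edgeR adjusted p = 3.53e-06), and its inhibitor DEPTOR also fell. MLST8, the small shared subunit, rose by 0.64 ± 0.07 (edgeR adjusted p = 1.73e-04) and the substrate EIF4EBP1 by 0.44 ± 0.07 (edgeR adjusted p = 0.00161). AKT1S1, RPS6KB2 and ULK1 were the other 3 that rose, and AKT1S1 passed narrowly at an adjusted p of 0.0492. AKT1S1 was lost without DMSO replicate 2 or 3 or NC replicate 2 or 3 (adjusted p = 0.151, 0.118, 0.125 and 0.116).

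The v-ATPase, the proton pump that Ragulator binds, had 6 genes up and 4 down of 16, with a median of 0.08. The 6 that rose became 2 without DMSO replicate 2, 3 without DMSO replicate 3 and 3 without NC replicate 1. ATP6AP1 rose by 0.55 ± 0.12 (edgeR adjusted p = 0.00668). ATP6V0B rose by 0.38 ± 0.12 (adjusted p = 0.0295), a call lost without DMSO replicate 2 or 3 or NC replicate 1 or 2 (adjusted p = 0.0872, 0.1, 0.0532 and 0.0756). ATP6V1H fell by 1.13 ± 0.1 (edgeR adjusted p = 6.00e-05) and ATP6V0E1 by 0.45 ± 0.08 (adjusted p = 0.00272), so the pump's subunits did not move as a block. Of the 11 genes of BORC and its partners, which position lysosomes and are held in check by Ragulator, 4 rose and 1 fell, with a median of 0.09, and 2 fell without NC replicate 2. BORCS7 rose by 0.68 ± 0.12 (edgeR adjusted p = 0.00213), BLOC1S2 by 0.63 ± 0.1 (adjusted p = 0.0011), and PLEKHM2 also rose. BORCS5 fell by 1.08 ± 0.14 (adjusted p = 4.21e-04).

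Among 12 relatives and binders of folliculin and the FNIP proteins, 4 rose and 2 fell, with a median of 0.03. PRKAB1 and PRKAB2 encode the beta subunits of AMPK, the kinase that phosphorylates FNIP1. PRKAB1 stood at 34.7, 34.7 and 32.6 CPM in DMSO and at 67, 72.3 and 67.9 CPM in NC, a log2 fold change of 1.02 ± 0.07 (edgeR adjusted p = 1.71e-05). PRKAB2, named after its values were seen, rose by 0.96 ± 0.06 (edgeR adjusted p = 1.49e-05), and PRKAA2, a catalytic subunit, fell by 0.68 ± 0.1 (edgeR adjusted p = 0.00109). The other catalytic subunit, PRKAA1, did not pass (log2 difference 0.03 ± 0.11, edgeR adjusted p = 0.861), nor did PRKAG1. SMCR8, a relative of folliculin that works with C9orf72 at the lysosome, rose by 0.7 ± 0.07 (edgeR adjusted p = 9.07e-05). DENND1A, another DENN-domain gene, fell by 2.95 ± 0.19 (edgeR adjusted p = 1.03e-05). GABARAPL1, of the family whose GABARAP binds the folliculin complex at damaged lysosomes, stood at 13.2, 10.8 and 8.63 CPM in DMSO and at 11.4, 45.5 and 47.6 CPM in NC. NC replicate 1 lay within the DMSO range there, and the call (log2 fold change 1.68 ± 0.49, edgeR adjusted p = 0.0214) was lost without DMSO replicate 2 or 3 or NC replicate 2 or 3 (adjusted p = 0.0585, 0.0687, 0.0756 and 0.0615).

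Downstream of the folliculin branch lie TFEB, TFE3 and MITF with their lysosomal targets. Of 24 such genes 8 rose, 3 fell and 13 did not pass, with a median of 0.12, and with scaling by library size alone 11 rose and 2 fell. The 8 that rose became 4 without DMSO replicate 3 and 5 without NC replicate 2. TFEB stood at 7.81, 6.4 and 6.92 CPM in DMSO and at 7.27, 6.82 and 7.98 CPM in NC, which overlap (log2 difference 0.06 ± 0.13, edgeR adjusted p = 0.711). TFE3 rose by 0.36 ± 0.07 on the log2 scale (edgeR adjusted p = 0.00278). MITF stood at 7.07, 8.89 and 18.6 CPM in DMSO and at 5.03, 2.34 and 2.8 CPM in NC, and fell by 1.78 ± 0.43 (edgeR adjusted p = 0.00967) with a DMSO library, replicate 3, well above the other two. Of the target genes, the sialidase NEU1 rose by 0.6 ± 0.1 (edgeR adjusted p = 0.00157). The hexosaminidase subunit HEXA fell by 0.73 ± 0.08 (edgeR adjusted p = 1.58e-04), and the membrane protein LAMP2 fell by 0.25 ± 0.06 (adjusted p = 0.00608, but 0.0608 when libraries were scaled by size alone). Protein localisation and phosphorylation were not measured.

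**Figure D5:**
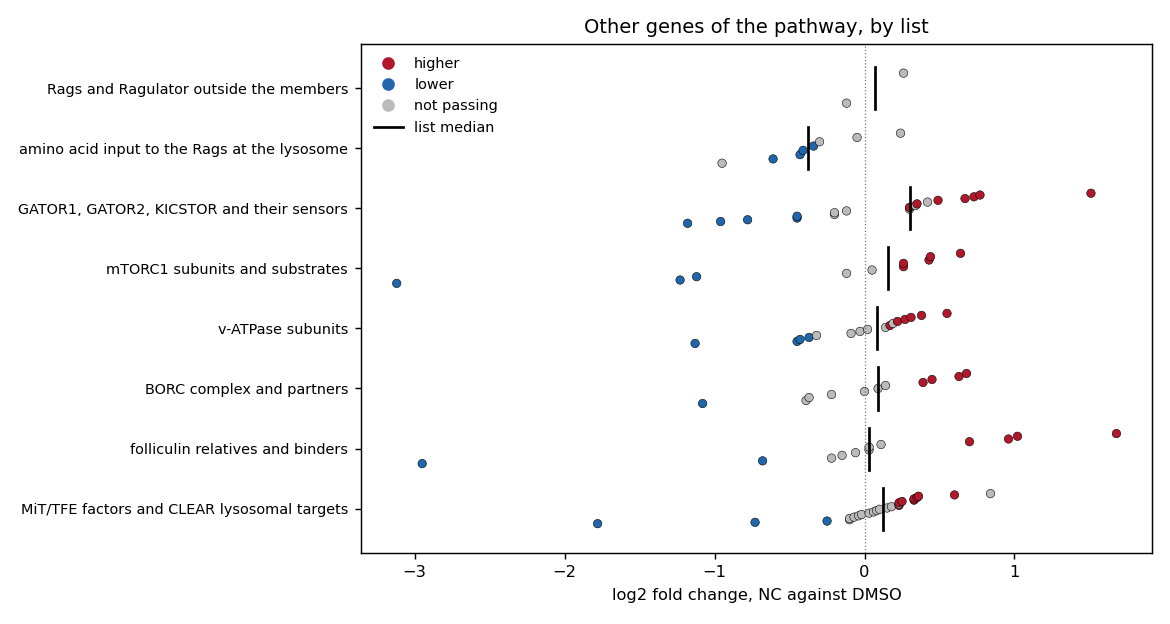
Log2 fold change, NC against DMSO (horizontal axis), of each gene in the 8 pathway lists (rows); each point is a gene, coloured by whether it rose, fell or did not pass the adjusted threshold, and the black tick is the list median. Medians lie between -0.37 and 0.3, genes of both directions appear in most lists, and RPTOR at -3.12 and DENND1A at -2.95 lie farthest to the left.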

How the data were processed

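The deposited table held read counts per gene, whole numbers whose totals differ between libraries, and FPKM scaled by the authors, per the file headers. The submitters' processing notes list HISAT2 2.0.4 and StringTie 1.3.0 but no role for either. Counter, strand setting and genome build were not given in the sources used here. Positions of genes were identical to GENCODE 29 (GRCh38) for 47538 of 50111 shared identifiers. Of the 50868 genes, 22254 had no counts.

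Library totals of 12688093 to 16357992 counts gave each member at least 272 counts in every library. Genes whose mean count over the 6 libraries was 10 or more were tested with edgeR 4.0.16 (R 4.3.3): TMM scaling, the quasi-likelihood test of NC against DMSO with no covariate, and Benjamini-Hochberg adjustment over 15953 genes at 0.05. The SE is the size of the log2 fold change divided by the square root of F, and intervals are 95%. Each library was treated as 1 sample. Replicates differed by more than sampling noise (chi-square per degree of freedom 8.699 to 16.13), a spread that may be technical and does not show separate cultures. Count ratios were compared with exact permutation tests (scipy 1.17.1). The code was tested on simulated data. Promoters came from RefSeq, GRCh38.p14.

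Members and lists were chosen with earlier results of these data known. Named in the text are all members, RRAGB, LAMTOR3, for each list the 2 genes that rose most and the 2 that fell most among those that passed with a mean of at least 50 counts, and the 3 genes nearest to the most changed member of each complex. Nearness was measured among genes averaging 100 counts or more. Other names, given where a count is small or a role is close to the members, were chosen after their values were seen. Some listed genes are not reported here by name. Alternatives were a replicate block, leaving out each library, other filters, scaling by library size, DESeq2 1.42.0, limma-voom (limma 3.58.1), a threshold of 0.01 and a test against a 1.5-fold change. Plots used matplotlib 3.10.9.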

Additional observations from a re-analysis of the deposited data

How the results depend on the processing

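Of the members, FNIP1 and FNIP2 passed under every alternative run, RRAGA, RRAGC and FLCN under all but the test against a 1.5-fold change, and the 4 Ragulator genes under none. Against a 1.5-fold change 2833 genes passed (750 higher, 2083 lower) and 2 members, while RRAGA (log2 fold change 0.57, adjusted p = 0.818), RRAGC (0.59, 0.685), FLCN (0.76, 0.0741) and RRAGD (-0.3, 1) did not. RRAGD, with an adjusted p of 0.02, also missed a threshold of 0.01, where 5993 genes and 5 members passed, and with scaling by library size alone (-0.2). Leaving out 1 library gave 7057 to 7828 genes and 5 to 6 members, and RRAGD ranged from -0.36 to -0.25, missing the threshold without DMSO replicate 3 (-0.25) or NC replicate 3 (-0.27). Scaling by library size moved the median of all genes from 0.01 to 0.12 and the share of higher among changed genes from 47.7% (3936 higher, 4314 lower) to 57.9% (5140 higher, 3730 lower). DESeq2 called 7751 genes and limma-voom 8242, each with 6 members. Without members overlapped by another counted gene, added after seeing the data, 4 of 5 changed, 1 higher and 3 lower. This removed RRAGC and FLCN, which rose, and LAMTOR1, LAMTOR4 and LAMTOR5, which did not pass. The share follows from which members were removed, and the same share over all genes was not computed. No pairing by replicate number was seen. Deviations of same-numbered libraries correlated at -0.008, -0.075 and 0.04, and not every library correlated best with its own number. Correlations among so few libraries cannot exclude a batch shared by number. A replicate block left 7555 genes and 6 members changed but RHEB, SLC38A9, AKT1S1 and GABARAPL1 short of the threshold. Against a 1.5-fold change each pathway list kept 0 to 2 higher and 0 to 3 lower genes. Every member had 272 counts or more per library, and whether depth or the 3 libraries a group limited the calls was not tested. The cause of each change was not tested.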
